A study of Rattus norvegicus with 8 samples.

Results

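The matrix metalloproteinases, the ADAM and ADAMTS proteases and the tissue inhibitors of metalloproteinases were examined in endothelial cells from the lungs of rats given monocrotaline or saline. The members were the genes whose symbol starts with Mmp, Adam or Timp and a number, or with Adamts, where a RefSeq table gave that symbol for the accession of a non-control array probe. There were 54 of them among 15159 named genes on the array. They were 20 Mmp genes, 18 Adam genes, 12 Adamts genes (3 of these of the Adamtsl kind) and 4 Timp genes. Both groups consisted of Sprague-Dawley rats aged 8 to 10 weeks. Rats of the monocrotaline group (4 samples) were injected under the skin with 60 mg/kg of monocrotaline, and rats of the saline group (4 samples) were injected with saline. The labels do not say whether a sample is 1 rat or a pool. Lungs were taken 5 days later and digested with collagenase, and cells were captured on magnetic beads that carry an antibody to CD31. RNA was isolated on the beads without culture, and 10 ng of it was amplified and labelled with Cy3. Besides endothelium, platelets and part of the leukocytes bear CD31, so the captured cells need not all be endothelial. Monocrotaline is an alkaloid from Crotalaria plants that is converted in the liver to a toxic pyrrole, injures lung vessels and leads over weeks to pulmonary hypertension. The comparison addresses what lung endothelium expresses differently early in that model.

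Matrix metalloproteinases are zinc enzymes that are made as inactive precursors and, once cut open, digest collagens, elastin, proteoglycans and other proteins around cells. ADAM proteases sit in the cell membrane and release the outer parts of neighbouring membrane proteins, among them growth factors, cytokines and adhesion molecules. ADAMTS proteases are secreted, bind to matrix and cut proteoglycans such as versican and aggrecan. TIMPs bind to the active site of these enzymes and block it. In lung vessels, turnover of elastin and collagen by these enzymes is part of the remodelling of the arterial wall.

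Each sample was read on 1 array, and the number of arrays limits the precision. All 8 arrays lay on 1 slide. By numbers in the names of the scans, the saline arrays were in its first row and the monocrotaline arrays in its second row. Slide row and treatment therefore cannot be told apart. The sample labels do not give the row. Between 70.8% and 77.7% of the non-control spots were well above background by the flag of the scanner software, and 0 spots were saturated. Signals of array pairs correlated across genes at 0.962 to 0.986. The median log2 difference of all 19137 genes tested was -0.03, and 46.1% of them had a positive difference. Signals are given below as log2 values relative to the 75th percentile of the same array, which is set to 0. These values can be compared between arrays for 1 gene, but not between genes, because probes differ in brightness. The 4 values of a group are listed in the order of the replicate numbers of the samples, and arrays are called saline 1 to 4 and monocrotaline 1 to 4. Errors of differences are standard errors from limma, and errors of means are SDs over 4 arrays.

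Of the 54 members, 36 were well above background on at least 4 of 8 arrays and were tested, 31 of them being above background on all 8 arrays and 5 on fewer. The remaining 18 were not tested, 11 of them being above background on no array and 7 on between 1 and 3. All 4 Timp genes and 9 of 12 Adamts genes were detected on all 8 arrays, as were 10 of 20 Mmp genes and 8 of 18 Adam genes. The 5 Adam genes above background on no array, Adam2, Adam26a, Adam30, Adam32 and Adam3a, are known mainly from testis and sperm. The 5 Mmp genes above background on no array were Mmp1 (a collagenase), Mmp3 and Mmp10 (stromelysins), Mmp20 (the enamel protease) and Mmp21. Adamtsl5 was not detected either. Adam10, the main sheddase of Notch receptors, and Adamts13, which cuts von Willebrand factor, were matched to no probe and are not analysed here.

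**Figure D1:**
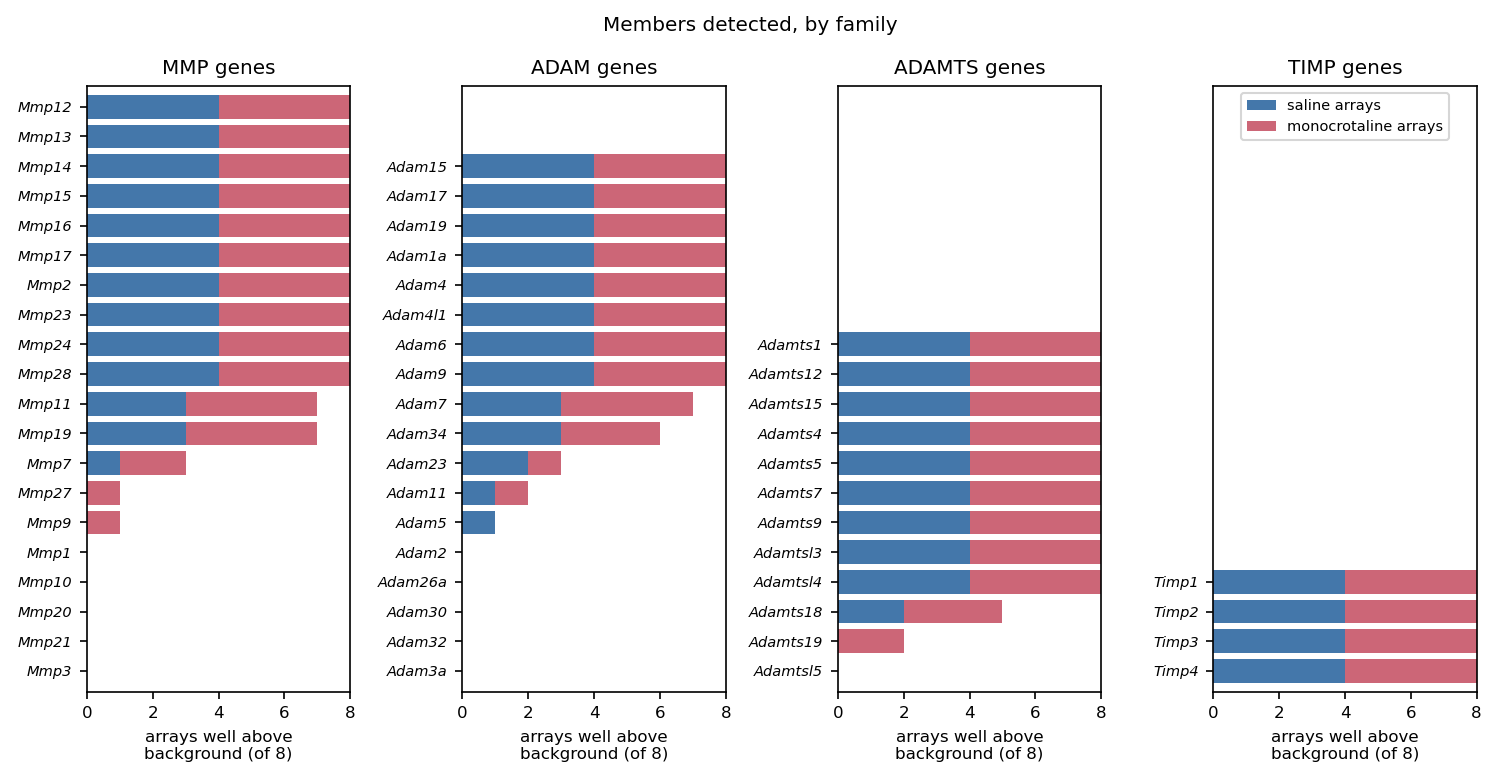
Number of arrays, out of 8, on which each member was well above background, split into saline arrays (blue) and monocrotaline arrays (red), with 1 bar per gene and 1 panel per family. The 4 Timp genes reached 8 of 8 arrays, while 11 genes have no bar because they were above background on no array.

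Mmp9, gelatinase B, which neutrophils and macrophages are known to secrete, was not among the tested genes. Its signals were -6.05, -6.87, -6.94 and -7.38 on the saline arrays and -6.54, -7.32, -5.40 and -7.30 on the monocrotaline arrays. Only monocrotaline 3, 1 of the 8 arrays, was above background for Mmp9, so no fold is given. Mmp7, matrilysin, an epithelial protease, was above background on 1 saline array and 2 monocrotaline arrays. Mmp27 was detected on 1 monocrotaline array, and Adamts19 on 2 monocrotaline arrays and on no saline array. Adam5 was detected on 1 saline array, Adam11 on 1 array of each group, and Adam23 on 2 saline arrays and 1 monocrotaline array. Adam11 and Adam23 lack an active protease site and are best known from brain.

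Of the Mmp genes, 8 lie in 1 cluster on chromosome 8, in the order Mmp13, Mmp12, Mmp3, Mmp1, Mmp10, Mmp27, Mmp20, Mmp7. Of these neighbours, 2 (Mmp12 and Mmp13) were above background on all 8 arrays, while 4 (Mmp3, Mmp1, Mmp10 and Mmp20) were above background on none. The RefSeq promoter table (build GRCr8) holds promoters, from 250 bases before to 50 bases after the start site, for 36 of the 54 members. The letters TGAGTCA, the classical binding motif of AP-1, were searched on both strands and found in 7 of the 36 promoters (19.4%), against 1550 of all 33469 promoters (4.63%). The 7 genes were Adam19 and 6 of the 8 chromosome 8 neighbours, and only Mmp12, Mmp13 and Adam19 of the 7 were detected on all 8 arrays. The 120 bases before the start site of these 6 neighbours are printed below, each 5′ to 3′, because they show the same letters at nearly the same place in genes with and without a signal. Capitals mark the AP-1 letters, which read TGACTCA where the match is on the other strand.

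Mmp7 (chr8:13132923-13133042, + strand): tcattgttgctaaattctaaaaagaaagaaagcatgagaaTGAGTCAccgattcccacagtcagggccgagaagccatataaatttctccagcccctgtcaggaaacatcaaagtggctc
Mmp10 (chr8:12974587-12974706, + strand): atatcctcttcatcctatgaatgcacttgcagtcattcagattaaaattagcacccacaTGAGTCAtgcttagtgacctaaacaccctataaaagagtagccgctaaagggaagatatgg
Mmp1 (chr8:12943333-12943452, + strand): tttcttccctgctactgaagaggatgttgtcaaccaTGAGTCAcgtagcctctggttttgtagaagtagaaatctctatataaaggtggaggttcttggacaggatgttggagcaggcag
Mmp3 (chr8:12925161-12925280, + strand): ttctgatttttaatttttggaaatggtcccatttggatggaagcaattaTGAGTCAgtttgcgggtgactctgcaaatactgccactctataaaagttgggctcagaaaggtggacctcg
Mmp12 (chr8:12866532-12866651, + strand): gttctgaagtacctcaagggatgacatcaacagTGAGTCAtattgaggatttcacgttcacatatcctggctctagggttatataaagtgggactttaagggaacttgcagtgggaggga
Mmp13 (chr8:12782709-12782828, + strand): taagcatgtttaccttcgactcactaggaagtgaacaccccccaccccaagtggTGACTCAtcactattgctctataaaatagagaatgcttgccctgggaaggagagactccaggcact

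In these 6 sequences the first capital lies between 61 and 87 bases before the start site, at -61 in Mmp10 and at -87 in Mmp12. All 6 also hold the TATA box letters TATAAA between the capitals and the start site. Those letters were found, on either strand, in 13 of the 36 member promoters (36.1%) and in 14.2% of all promoters. The ETS motif AGGAAG, also on either strand, was present in 11 of the 36 (30.6%) and in 34.5% of all. A match of the ETS letters can share 1 base with either other motif, and any match is a description of the sequence only. Whether a factor binds there was not measured.

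No member passed the test in either direction. With limma, 0 of 36 tested members were called higher in the monocrotaline samples and 0 were called lower at a Benjamini-Hochberg adjusted p under 0.05, against 1.37% of all genes tested called higher (262 of 19137) and 0.0627% called lower (12). At an unadjusted p under 0.05, 3 of the 36 members were higher (Mmp12, Mmp19 and Mmp23) and 0 were lower, where 6.72% of all genes were higher and 7.23% lower. The 4 monocrotaline arrays lay wholly on one side of the 4 saline arrays for 1 member, Mmp19 (2.78% of those tested), against 8.55% of all genes. The lowest adjusted p among the members was 0.227, that of Mmp19.

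The median log2 difference was 0.20 over the 12 tested Mmp genes, -0.08 over 10 Adam genes, 0.17 over 10 Adamts genes and -0.03 over the 4 Timp genes, beside -0.03 over all genes. The Mmp median turned to -0.12 without a filter on dim probes and over the genes above background on all 8 arrays, to -0.05 with each probe on its own and to -0.02 with normexp and 75th percentile scaling. The median over all genes was -0.10 without the filter and -0.03 over those above background on all 8 arrays. It was -0.02 with each probe on its own and -0.07 with that normexp setting. Over the alternatives the Adamts median ran from -0.04 to 0.22, the Timp median from -0.12 to 0.05 and the Adam median from -0.17 to -0.04. Differences were positive for 6 of 12 Mmp genes, 3 of 10 Adam genes, 8 of 10 Adamts genes and 2 of 4 Timp genes. The size of the difference was under 0.5 log2 units for 27 of the 36 members and 1 or more for 5 members. For 19 members the whole 95% interval lay within 1 log2 unit of 0, that is, within 2-fold either way, and for the other 17 it reached further. Of the 19, 2 were Mmp genes, 8 Adam genes, 6 Adamts genes and 3 Timp genes. With 4 arrays per group the data do not exclude differences inside these intervals, and a p above the threshold does not show that the groups are alike.

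**Figure D2:**
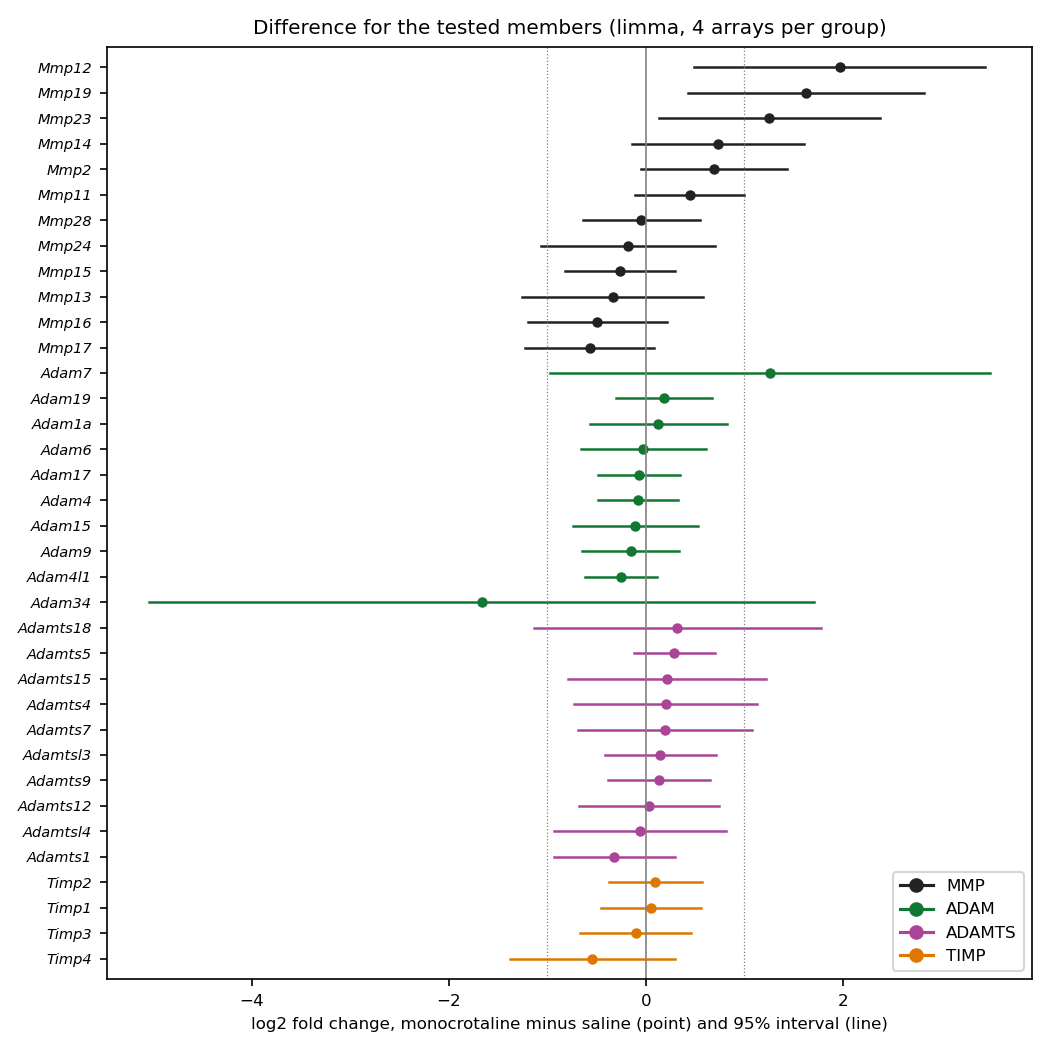
Log2 difference, monocrotaline minus saline, for the 36 tested members (points, limma) with the 95% interval (lines), grouped and coloured by family, with dotted lines at 2-fold either way. Only Mmp12, Mmp19 and Mmp23 have an interval wholly above 0, without adjustment for the number of genes, and Adam7 and Adam34 have the widest intervals.

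Mmp12, macrophage elastase, had the largest positive difference among the members. Its log2 signals were -3.60, -3.77, -2.64 and -4.38 on the saline arrays and -0.97, -3.61, -0.90 and -1.05 on the monocrotaline arrays. Monocrotaline arrays 1, 3 and 4 lay above all saline arrays, while monocrotaline 2 lay inside the saline range. The log2 difference was 1.97 ± 0.64 (95% interval 0.49 to 3.44), a 3.91-fold higher mean with an interval of 1.41 to 10.9, and it did not pass the adjusted threshold (limma adjusted p = 0.238). Without monocrotaline 2 the difference was 2.63 and did pass (limma adjusted p = 0.023). Over the 22 alternative settings tried the difference of Mmp12 stayed between 1.27 and 2.63, with adjusted p from 0.023 to 0.591.

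Mmp2, gelatinase A, digests denatured collagen and basement membrane collagen. Its signals were 2.55, 1.67, 3.15 and 2.21 with saline and 3.63, 3.06, 2.73 and 2.92 with monocrotaline. The groups overlapped, with 1 monocrotaline array above the highest saline array and the other 3 within the saline range. The log2 difference was 0.69 ± 0.32 (limma adjusted p = 0.387), and a second probe of Mmp2 gave 0.60 ± 0.38. Of the collagenases, Mmp13 was tested and had a difference of -0.34 ± 0.40. Of the stromelysins, Mmp11 was tested, at 0.44 ± 0.24.

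Mmp14, a membrane-bound collagenase, is the main activator of the Mmp2 precursor, which it holds at the cell surface through Timp2. Signals of Mmp14 were 0.65, 0.38, 2.25 and 1.06 with saline and 2.06, 2.07, 1.51 and 1.62 with monocrotaline. Saline 3 was above every monocrotaline array, and the other 3 saline arrays were below all of them. The log2 difference was 0.73 ± 0.38 (1.66-fold, 95% interval 0.904 to 3.04, limma adjusted p = 0.427), and leaving out 1 array at a time gave 0.49 (without saline 2, adjusted p = 0.556) to 1.12 (without saline 3, adjusted p = 0.0941).

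The other membrane-type enzymes had negative differences. Mmp17, which is held in the membrane by a lipid anchor, gave 0.60, 0.41, 1.17 and 1.29 with saline and 0.25, 0.96, -0.17 and 0.14 with monocrotaline. For Mmp17, 3 monocrotaline arrays were below the lowest saline array and monocrotaline 2 was inside the saline range. Its log2 difference was -0.57 ± 0.29 (limma adjusted p = 0.414), and its second probe gave -0.43 ± 0.39. Mmp16 gave -0.17, -0.54, 0.29 and 0.43 with saline and -0.33, 0.07, -1.22 and -0.48 with monocrotaline, a difference of -0.49 ± 0.31. Mmp15 gave 3.78, 4.08, 4.03 and 4.17 with saline and 4.20, 4.06, 3.65 and 3.08 with monocrotaline, so that the monocrotaline arrays lay both above and below the saline range. The difference of Mmp15 was -0.27 ± 0.24, and its second probe gave -0.07 ± 0.31. Mmp24, known mainly from the nervous system, had a difference of -0.18 ± 0.39. Thus 1 of the 5 membrane-type genes had a positive difference and 4 a negative one, and all 5 were detected on all 8 arrays.

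Mmp19, a secreted protease that acts on basement membrane proteins, gave -5.39, -7.28, -4.58 and -5.18 with saline and -3.50, -4.31, -4.06 and -4.06 with monocrotaline. All 4 monocrotaline arrays were above the highest saline array. The log2 difference was 1.63 ± 0.52 (95% interval 0.43 to 2.82, limma adjusted p = 0.227), a 3.08-fold higher mean. The probe of Mmp19 was above background on all arrays but 1 of the saline group, and saline 2 was the lowest. Leaving out 1 array at a time gave differences of 1.07 (without saline 2) to 1.97. With normexp background correction the difference was smaller, 0.67 after quantile normalization and 0.52 after 75th percentile scaling, with adjusted p of 0.106 and 0.197.

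Mmp23, a small membrane-anchored enzyme, lies outside the rule for naming genes and was chosen after its values were seen. Its signals were -2.69, -4.33, -1.69 and -3.19 with saline and -1.55, -1.70, -1.51 and -2.13 with monocrotaline. Of the monocrotaline arrays, 2 were above the highest saline array, saline 3, and all 4 were above the other 3 saline arrays. The log2 difference was 1.25 ± 0.49 (limma adjusted p = 0.316). Mmp28, epilysin, an enzyme of epithelia, had a difference of -0.05 ± 0.26.

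**Figure D3:**
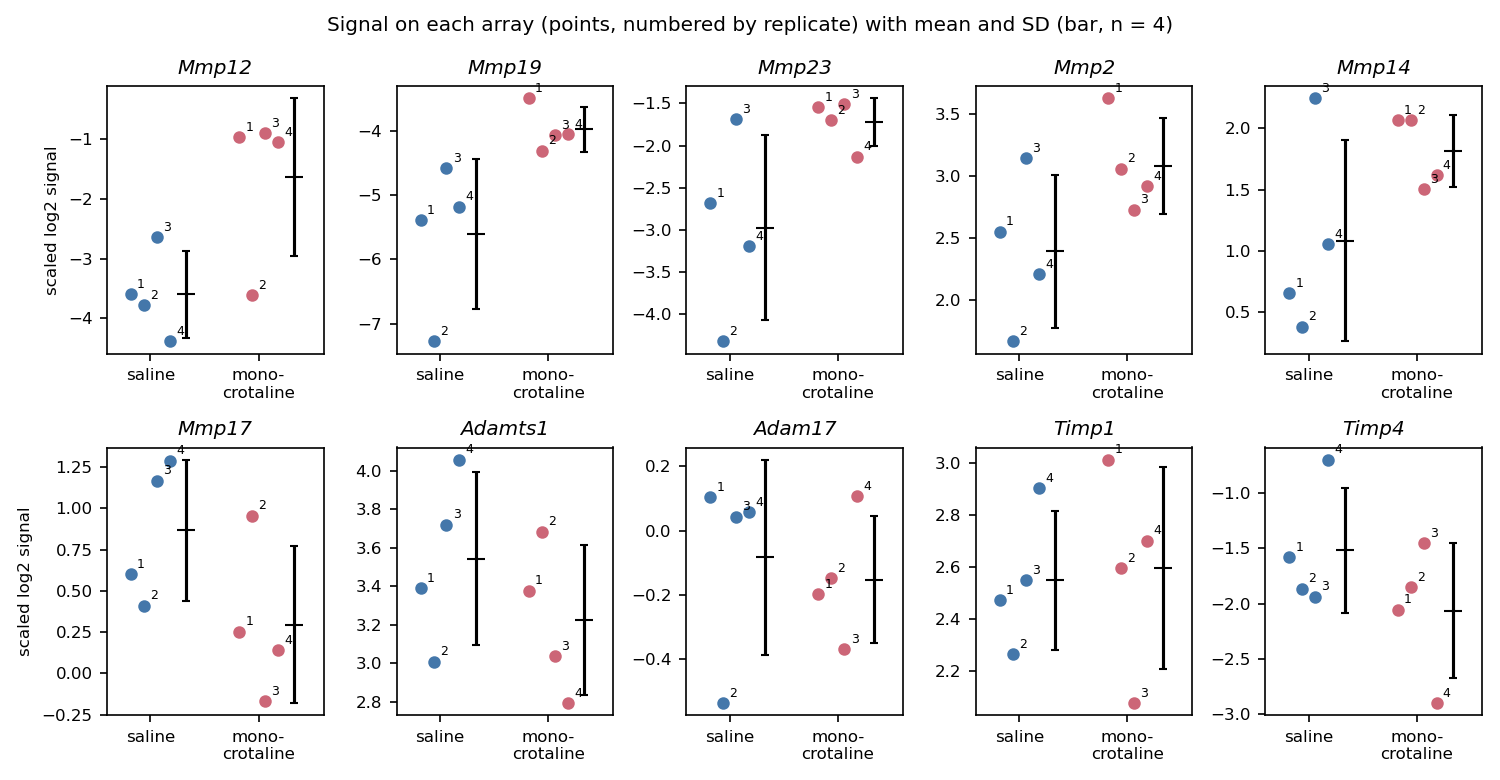
Scaled log2 signal of 10 members on each array (points, blue for saline and red for monocrotaline, labelled with the replicate number) with the mean and SD of the 4 arrays (bars), each panel on its own axis. Of these 10, Mmp19 alone has all monocrotaline points above all saline points, and monocrotaline 2 lies apart from the other 3 monocrotaline arrays for Mmp12.

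Among the Adam genes the detected ones with known sheddase or adhesion roles showed small differences. Adam17, which releases TNF and several growth factor precursors, gave 0.10, -0.54, 0.04 and 0.06 with saline and -0.20, -0.15, -0.37 and 0.11 with monocrotaline. The monocrotaline values lay between saline 2 and the other saline arrays, except for monocrotaline 4, which was just above all of them. The log2 difference of Adam17 was -0.07 ± 0.18 with a 95% interval of -0.48 to 0.34, so that a 2-fold difference lies outside it. Adam15, an endothelial and smooth muscle ADAM that binds integrins, had a difference of -0.11 ± 0.28, and Adam9 had -0.15 ± 0.21. Adam19 had 0.18 ± 0.21 by its brighter probe and 0.34 ± 0.20 by its second. The signals of Adam15 ran from 1.41 to 2.22 with saline and from 1.04 to 2.29 with monocrotaline, the wider range being on both sides of the narrower one.

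Of the Adam genes known mainly from the male reproductive tract, Adam1a, Adam4, Adam4l1 and Adam6 were above background on all 8 arrays. Their differences ran from -0.25 ± 0.16 (Adam4l1) to 0.13 ± 0.30 (Adam1a). Adam7, an epididymal gene, gave -3.67, -1.16, -6.69 and -3.23 with saline and -2.72, -2.49, -2.18 and -2.32 with monocrotaline. The saline arrays of Adam7 spanned 5.53 log2 units and enclosed all 4 monocrotaline arrays, which spanned 0.54, and the difference was 1.26 ± 0.98. It rested on single saline arrays, being 0.26 without saline 3, the low array, and 2.10 without saline 2, the high one. With normexp background correction it was 0.58 to 0.62. The probe of Adam7 was above background on 7 of 8 arrays, the exception being a saline array. Adam34, chosen after its values were seen, had the most negative difference of all members, -1.67 ± 1.48. The probe tested had 1 spot per array and was above background on 3 saline and 3 monocrotaline arrays. Signals of Adam34 ran from -7.69 to -1.76 with saline and from -8.32 to -3.12 with monocrotaline. Its second probe was above background on no array, so the probes of Adam34 disagree.

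Of the 5 detected Adamts genes that cut aggrecan and versican, 4 had positive differences of 0.13 to 0.29 and Adamts1 a negative one. Adamts1, which also limits vessel growth, gave 3.39, 3.01, 3.72 and 4.06 with saline and 3.38, 3.68, 3.04 and 2.79 with monocrotaline. Monocrotaline 4 was below the saline range and the other 3 were within it, and the difference was -0.32 ± 0.27 (95% interval -0.94 to 0.30). Adamts5, the neighbour of Adamts1 on chromosome 11, had a difference of 0.29 ± 0.18, and its monocrotaline signals of -3.28 to -3.03 lay within the saline range. Adamts9 had 0.13 ± 0.23 and Adamts15 had 0.21 ± 0.44, where a second probe of Adamts15 gave 0.26 ± 0.39. Adamts4 had 0.20 ± 0.41.

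Among the other Adamts genes, Adamts7 and Adamts12, both of which cut a cartilage and vessel wall matrix protein, had differences of 0.19 ± 0.39 and 0.04 ± 0.31. Adamts18 was above background on 5 of 8 arrays and had 0.32 ± 0.64. The Adamtsl genes code for matrix proteins with no protease domain. Adamtsl4, which binds fibrillin fibres, had -0.06 ± 0.38. Adamtsl3 had 0.14 ± 0.25 by its brighter probe, while its second probe, above background on 4 of 8 arrays, gave -0.59 ± 0.45, the opposite sign.

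The 4 inhibitors were detected on every array. Timp1, which is induced in many injured tissues, gave 2.47, 2.26, 2.55 and 2.91 with saline and 3.01, 2.60, 2.08 and 2.70 with monocrotaline. The 2 groups lay over each other, and the log2 difference was 0.05 ± 0.22 (95% interval -0.46 to 0.56). Timp2, the partner of Mmp14 and Mmp2, gave 4.86, 4.91, 5.00 and 4.45 with saline and 5.31, 4.44, 4.90 and 4.93 with monocrotaline, a difference of 0.09 ± 0.21. Timp3, which is bound to matrix and also blocks Adam17 and several ADAMTS enzymes, had a difference of -0.10 ± 0.25. The 95% intervals of Timp1, Timp2 and Timp3 all lay within 2-fold either way.

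Timp4, an inhibitor best known from heart and vessels, gave -1.58, -1.86, -1.94 and -0.70 with saline and -2.06, -1.85, -1.45 and -2.90 with monocrotaline. For Timp4, 2 monocrotaline arrays were below the saline range and the others inside it. The log2 difference was -0.55 ± 0.37 (95% interval -1.38 to 0.29, limma adjusted p = 0.542), and a second probe gave -0.61 ± 0.38. The difference was -0.27 without saline 4, the highest array, and also -0.27 without monocrotaline 4, the lowest.

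At the median, the members varied more between samples of 1 group than all genes did. The within-group SD was pooled over both groups and drawn by limma towards a value common to all genes. Its median was 0.42 log2 units for the 36 tested members and 0.28 for all genes. By family it was 0.50 for Mmp, 0.35 for Adam, 0.49 for Adamts and 0.33 for Timp genes. Saline 2 was the lowest saline array for 17 of the 36 members (47.2%), among them Mmp2, Mmp14, Mmp16, Mmp17, Mmp19, Mmp23, Adamts1 and Timp1, against 29.3% of all genes. Saline 3 was the highest saline array for 13 members (36.1%), against 22.6% of all genes. Monocrotaline 3 was the lowest monocrotaline array for 14 members (38.9%), against 24% of all genes, and monocrotaline 4 the highest for 2 (5.56%), against 21.5%. These shares are descriptions, since all genes on 1 array were read from the same sample and are not independent.

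Marker genes of the cells that a CD31 capture from whole lung could hold were read on the same arrays. All 9 endothelial markers measured, among them Pecam1 (which codes for CD31) and Cdh5, were detected on all 8 arrays. Their median log2 difference was -0.62, with 0 of 9 called and 5 of 9 lower at an unadjusted limma p under 0.05. Of all genes tested, 6.72% were higher and 7.23% lower at that unadjusted p. In a bulk sample, fewer cells of a type and less RNA per cell cannot be told apart. The score of a list is its mean log2 signal minus the saline mean. For the fibroblast and mesothelial list it was 0.60, -1.75, 1.26 and -0.11 on the saline arrays and 1.66, 1.07, 1.54 and 0.13 on the monocrotaline arrays. All 9 measured genes of that list had a positive difference (median 1.16), with 0 called by limma and 1 higher at an unadjusted p under 0.05. Wt1 was above background on 4 arrays, Lum on 7 and the other measured genes of the list on all 8. The summed linear signal of the list, in units of the 75th percentile of each array, was 9.75 to 66.4 with saline and 31.6 to 85.4 with monocrotaline. Mmp2, Mmp14 and Mmp23, which fibroblasts are known to make, were lowest on saline 2 and highest on saline 3 within the saline group, as was this score. Within the monocrotaline group the score was lowest on monocrotaline 4, as was Mmp23, but Mmp2 and Mmp14 were lowest on monocrotaline 3, where the score was near its highest. The part of fibroblast content in their differences was not tested. The saline pattern was not limited to the fibroblast list. The smooth muscle and pericyte score was 0.24, -1.37, 1.25 and -0.13 with saline and 0.82, 1.25, -0.25 and 0.23 with monocrotaline. The alveolar type 2 score was 1.22, -2.43, 1.65 and -0.45 with saline and -0.08, 0.84, 0.62 and 0.15 with monocrotaline.

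The alveolar macrophage and monocyte list moved differently. Its score was 0.22, 0.15, 0.05 and -0.42 with saline and 0.23, -0.96, 0.21 and 0.36 with monocrotaline, and its 8 tested genes had a median difference of 0.02 with 0 called by limma and 0 at an unadjusted p under 0.05. The summed signal of the list was 124 to 203 with saline and 82.8 to 149 with monocrotaline. Each of the 8 tested genes was above background on all 8 arrays, while Marco, an alveolar macrophage receptor, was above background on 1 of 8 and was not tested. Monocrotaline 2, the low array for Mmp12, also had the lowest macrophage score of all 8 arrays. Saline 4 had the lowest macrophage score and the lowest Mmp12 signal of the saline arrays. Other arrays did not match in this way. Saline 1 and monocrotaline 1 had nearly the same score, 0.22 and 0.23, while Mmp12 was at -3.60 and -0.97. Saline 3 had the highest Mmp12 signal of the saline arrays, but a lower score than saline 1 and saline 2. The part of macrophage content in the values of Mmp12 was not tested. The neutrophil list was highest, at 2.29, on monocrotaline 3, the array on which Mmp9 had its highest signal. Of the tested genes of the list, Camp did not peak there. It was at -1.33 on monocrotaline 3 and highest, at -0.65, on monocrotaline 4. Of that list, S100a8, S100a9, Csf3r and Camp were above background on all 8 arrays, Cxcr2 on 4, Ltf on 3 and Elane on no array. Of the T and NK cell list, 3 of 10 genes were called higher by limma (median difference 1.66), against 1.37% of all genes. The score of that list was 0.99 to 1.93 with monocrotaline and -0.85 to 0.34 with saline. The score of the airway list was high on monocrotaline 1 and 3, at 2.77 and 2.87, and at most 0.65 on the other arrays. Its brightest gene, Tppp3, went the other way, with a difference of -0.54 ± 0.26. The summed signal of the list was 45.4 to 60.4 with saline, and 59.7 and 51.1 on monocrotaline 1 and 3, so it did not show the rise. The members' counts without those 2 arrays were again 0 higher and 0 lower, an alternative chosen after seeing the data.

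**Figure D4:**
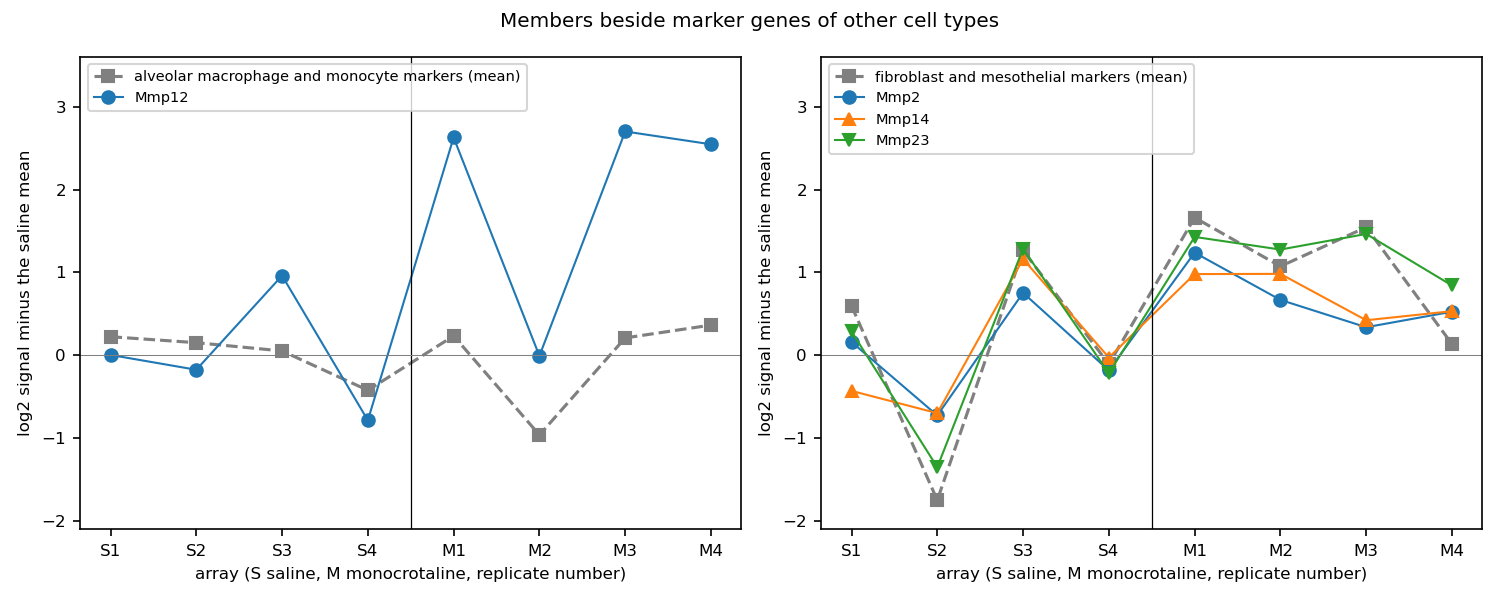
Log2 signal minus the mean of the 4 saline arrays on each array (S saline, M monocrotaline, by replicate number), for Mmp12 beside the mean of the macrophage and monocyte markers (left) and for Mmp2, Mmp14 and Mmp23 beside the mean of the fibroblast and mesothelial markers (right). Mmp12 and the macrophage markers are both at their lowest monocrotaline value on M2, and the genes on the right and the fibroblast markers are all lowest on S2 but do not share their lowest monocrotaline array.

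Genes that act with the members were read from lists of known partners, and 0 genes of any list were called by limma. Of all genes tested, limma called 1.37% higher and 0.0627% lower. At an unadjusted limma p under 0.05, 6.72% of all genes were higher and 7.23% lower. Of the genes that activate or restrain matrix metalloproteinases, 10 of 14 were tested, with a median log2 difference of -0.18, and 1 was higher and 0 lower at an unadjusted limma p under 0.05. Cd63, a tetraspanin that binds Timp1 and the brightest probe of that list, had -0.23 ± 0.21. Of the plasmin system, which opens several metalloproteinase precursors, 10 of 11 genes were tested, with a median of 0.11, 8 positive differences, and 1 gene higher and 0 lower at an unadjusted p under 0.05. The brightest probe was that of Anxa2, a cell surface holder of plasminogen, with 0.12 ± 0.15. Of the cathepsins and other matrix-degrading enzymes, 12 of 14 were tested, with a median of -0.14, and 1 was higher and 2 lower at an unadjusted p under 0.05. Ctsd, a lysosomal protease and the brightest of them, had -0.08 ± 0.36. The 8 tested matrix substrates had a median of 0.04, with 0 genes at an unadjusted limma p under 0.05, and the brightest, Bgn, a small proteoglycan, had 0.12 ± 0.31.

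Of the proteins that carry Adam10 and Adam17 to the cell surface, 8 of 9 were tested, with a median difference of -0.17, and 0 were higher and 1 lower at an unadjusted limma p under 0.05. The brightest was Frmd8, which stabilises the carrier of Adam17, with 0.10 ± 0.18. Of the proteins that ADAMs release from the membrane, 20 of 21 were tested, with a median of -0.21. At an unadjusted limma p under 0.05, 1 of the 20 was higher and 6 were lower, beside 6.72% and 7.23% of all genes. None of the 20 was called after adjustment. The 6 lower genes were named after their values were seen. They were Tnf, the receptor Notch1, its ligand Dll4, the ephrin Efnb2, the angiopoietin receptor Tek, and Tie1. Tek and Tie1 are also in the endothelial marker list, whose median was -0.62. Tnf, the brightest probe of the list, gave 5.41, 5.29, 4.54 and 4.17 with saline and 4.35, 1.05, 3.33 and 3.98 with monocrotaline. Its log2 difference was -1.68 ± 0.68 (limma adjusted p = 0.331), and monocrotaline 2, the array with the lowest macrophage score, was by far the lowest. Whether macrophage content bears on the values of Tnf was not tested.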

How the data were processed

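Per the file headers, Feature Extraction 10.7.3.1 made the processed signals, an intensity with background subtracted and spatial trend removed on each array. The flag columns hold other values (0 or 1), per the file headers. The authors' deposited table, an alternative here, holds log2 values of log2 values: with the outer log2 undone, they matched quantile-normalized log2 signals of the 62976 features (median absolute difference 9.89e-10). The submitters' processing notes name limma 3.6.9.

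Outlier and control spots were left out, spots of a probe averaged, and log2 signals scaled to the 75th percentile of each array. Of 30367 probes, 21652 that were above background on at least 4 arrays were kept. The brightest probe of each gene entered limma 3.58.1 in R 4.3.3, tested on simulated data, with adjustment over 19137 genes (7694 known only by accession). Of the probes, 18006 matched a symbol and 12361 did not.

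Members, lists and rules were chosen with earlier results of these data known. The naming rule took called members, non-overlapping ones of at least 2-fold, the 3 brightest per family, the 2 largest differences each way per family among genes detected on every array of their brighter group, fixed genes, and the called and brightest genes of each list. A gene of the name pattern is not reported here. A planned split of Adam genes by protein motif was not run. Alternatives were normexp (offset 50, on median spot signal), quantile or median scaling, the deposited table, other filters and probe rules, limma trend, robust and array weights, a replicate block, and leaving out arrays. Since the labels do not say that replicates are separate animals, p-values measure only the spread between these samples.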

Additional observations from a re-analysis of the deposited data

Results flagged for a closer look

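Among 46 groups of 4 arrays examined for the 23 named members, 2 held an array far from the other 3, and chance gives about 1 in 20. Mmp12 on monocrotaline array 2 had a log2 signal of -3.61, while the nearest of the other monocrotaline arrays was at -1.05 and the gap was 0.943 of the whole range. Adam17 on saline array 2 had a log2 signal of -0.54, while the nearest of the other saline arrays was at 0.04 and the gap was 0.904 of the range. The cause of either was not tested.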

How the results depend on the processing

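Over 22 alternatives, 0 members were lower after monocrotaline, and 0 were higher except without monocrotaline replicate 2, where Mmp12 was called, so that leaving out 1 array gave 0 to 1 members higher. The lowest adjusted p of any member ran from 0.023 (that case) to 0.535. Log2 differences that changed sign belonged to genes with values near 0. Leaving out 1 array gave -0.33 to 0.0932 for Adam15, -0.22 to 0.0023 for Adam17, -0.026 to 0.30 for Adamts9, -0.28 to 0.17 for Adamtsl4, -0.0909 to 0.22 for Timp1, -0.0448 to 0.25 for Timp2 and -0.30 to 0.0791 for Timp3. Without monocrotaline replicates 1 and 3 (chosen after seeing the data) Adam17 was 0.0615 and Timp2 -0.12, and with array weights Adamts9 was -0.0086. The median of the Mmp genes ran from -0.12 to 0.38 over the alternatives. The cause of these changes was not tested. The calls over all genes, 262 higher and 12 lower, became 367 and 59 with array weights and 11 and 0 without saline replicate 1.

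With a replicate block 0 members were higher and 0 lower, 0 of all genes were called, and the lowest adjusted p of a member was 0.271 (Mmp19). Deviations of same-numbered arrays correlated at -0.33 to -0.01, and no array correlated best with its own number. The deviations hold every difference between samples, so they do not settle whether the numbers mark pairs. By the names of the scans, slide columns carry the same numbers, so the block is also one for slide column.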
